A study of Rattus norvegicus with 6 samples.

Results

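Among the small RNAs listed for rat nucleus pulposus were 122 distinct tags of 19 to 25 nt that carry no established miRNA name, of 442 distinct sequences in all. They were taken as every row whose mature name is provisional, built from a chromosome and a running number, and whose sequence is 19 nt or longer, with 1 tag kept per sequence. The 122 tags stood on 125 rows, because 3 of them were listed under 2 provisional names. The other sequences were 204 established miRNAs and 116 provisionally named tags of 17 to 18 nt. Tags are called here by the chromosome and number of their provisional name (chr3_24095, for example). The rule used the name and the length, not the counts, although it was set with earlier results of these data known.

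The IDD group was rat nucleus pulposus, the soft centre of the disc between 2 vertebrae, after compression for 4 weeks, which the study used to induce disc degeneration (3 libraries). The Sham group was the same tissue of rats that, by their labels, carried K-wires for 4 weeks (3 libraries). Strain, sex, age and disc level are not given in the sources used here, and nothing says whether the libraries of a group came from separate animals, so p-values measure only the spread between these libraries. The study's design asks which miRNAs respond to mechanical load.

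A miRNA is cut from 1 arm of a hairpin precursor and then guides Argonaute proteins to messenger RNAs, mainly through its seed, the bases 2 to 8 counted from the 5′ end. Programs that search small RNA reads for new miRNAs give a provisional name to a tag that maps to a place in the genome that looks as if it could form such a hairpin. Tags that differ from a known miRNA by a base or a few at the 3′ end are called isomiRs, and fragments of other abundant RNAs can also enter such lists. A provisional name by itself therefore does not make a tag a miRNA.

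The 10 tags of highest mean level are shown because the counts rest almost entirely on them, and the results below refer back to them. Each is written 5′ to 3′, with the seed in capitals.
chr3_24095: aCAGUAGUcugcacauugguu
chr19_19038: uGGCUCAGuucagcaggaac
chr8_38557: cUGAUCUCggaagcuaagca
chr11_8278: uCUGCUGAcugccuaugggc
chr15_13357: cCGCCCUGugguugcugga
chr2_22840: uUCGGCUGcauuucucgguugu
chr14_11855: aGAUCCAAcucugaccuca
chr15_14264: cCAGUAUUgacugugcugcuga
chr17_16673: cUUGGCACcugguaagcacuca
chr4_28881: uGGAAUUAcuguuucuggca

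The deposited tag counts summed to 189802 to 246422 per IDD library and 169783 to 253807 per Sham library. On the CPM scale, which sets each count against the total of its library, 3 counts were worth 11.8 to 17.7 CPM. The lowest listed count was 2, and unlisted cells are blank. Established miRNAs held 77.8% to 83.1% of the tags in IDD and 49.5% to 56.2% in Sham, and provisionally named tags of 17 to 18 nt held 15.9% to 21.2% and 42.9% to 49.7%. All 4 cartilage miRNAs used as markers of the tissue were listed, at 12.3% to 12.9% of tags in IDD and 7.62% to 10.2% in Sham. Of 5 skeletal muscle miRNA sequences 4 were listed, at 39.1% to 43.3% in IDD and 20.2% to 22.7% in Sham, and miR-133b-3p was not listed. The liver miRNA miR-122-5p held 0.804% to 0.862% and 0.669% to 0.861%, and an endothelial miRNA 0.00233% to 0.00263% and 0.00318% to 0.00412%. Of the 2 red blood cell miRNAs 1 was listed, miR-451-5p, at no more than 0.00203% in any library, and miR-144-3p was not listed. None of the 3 leukocyte miRNAs was listed. The part of muscle tissue or of any other cell type in the differences below was not tested, and in tissue RNA fewer cells of a type and less of an RNA per cell cannot be told apart.

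Fewer of the 122 tags were listed after compression. IDD 1, 2 and 3 listed 52, 48 and 53 of them, and Sham 1, 2 and 3 listed 74, 73 and 66. The groups did not overlap. The means were 51.0 ± 2.65 in IDD and 71.0 ± 4.36 in Sham (SD of 3 libraries each, two-sided exact permutation p = 0.1, which is the lowest p possible with 3 against 3). The whole table went the same way, at 264, 258 and 273 sequences listed in IDD 1, 2 and 3 and 322, 320 and 305 in Sham 1, 2 and 3, and so did the provisional tags of 17 to 18 nt, at 49, 51 and 50 against 75, 82 and 74. Established miRNAs were listed at 163, 159 and 170 in IDD 1, 2 and 3 and 173, 165 and 165 in Sham 1, 2 and 3, which overlap. Fewer listed sequences in IDD were thus seen in both provisional classes, not in the 122 tags alone, and without separation among established miRNAs. The part of library depth was not tested. Among the 122, the difference was seen in tags of very low count. With at least 5 counts required, the means were 13.0 ± 1.73 and 14.3 ± 4.04 tags and the groups overlapped (exact permutation p = 1.0). With at least 10 counts they were 5.67 ± 0.577 and 6 ± 1.73 (exact permutation p = 1.0). Counting only tags of at least 20 CPM turned the direction of the means, with 14.3 ± 2.08 tags in IDD and 13.0 ± 4.36 in Sham (exact permutation p = 0.8). The numbers overlapped, at 15, 16 and 12 in IDD 1, 2 and 3 and 11, 10 and 18 in Sham 1, 2 and 3. Such a cut asks for more counts in a library of larger total, so it is not the same count in each library.

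**Figure D1:**
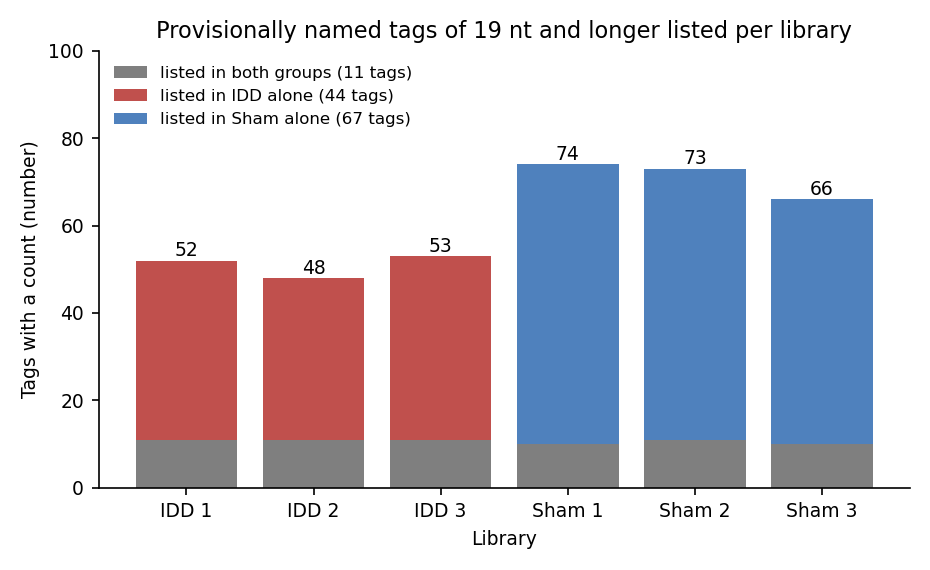
Number of provisionally named tags of 19 nt and longer with a count in each library (vertical axis, number of tags), split into tags listed in both groups, in IDD alone and in Sham alone. The 3 IDD bars reach 48 to 53 and the 3 Sham bars 66 to 74, and the tags listed in both groups form the small base of each bar.

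Listing was almost always tied to 1 group. All 3 IDD libraries and no Sham library listed 36 tags, and all 3 Sham libraries and no IDD library listed 55. These 91 tags are 74.6% of the 122, whereas 41.6% of all 442 sequences had such a pattern, 15.2% on the IDD side and 26.5% on the Sham side. A further 8 tags were listed in 1 or 2 IDD libraries alone and 12 in 1 or 2 Sham libraries alone, which makes 111 tags listed in 1 group alone, or 91.0%, against 56.6% of all sequences. Only 11 of the 122 tags were listed in both groups, and 10 of these were listed in all 6 libraries. Among established miRNAs the picture was the other way round, with 23 of 204 (11.3%) listed in all 3 libraries of 1 group alone and 155 in both groups. The 17 to 18 nt provisional tags lay between, with 70 of 116 (60.3%).

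The counts differ between these classes, so the pattern is also given for scarce sequences, which were not matched further on count. Among sequences with at most 20 counts over the 6 libraries, 90 of 112 of the tags (80.4%) were listed in all 3 libraries of 1 group alone and 2 in both groups. Of 63 established miRNAs as scarce, 16 (25.4%) had such a pattern and 21 were listed in both groups. Of 94 scarce provisional tags of 17 to 18 nt, 69 (73.4%) had it. Whether the authors' calling was done per library, per group or on all libraries together was not given in the sources used here, and its part in these patterns was not tested.

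The 91 tags listed in 1 group alone and in all of its libraries had few counts, most of them 2 or 3, and mostly a small spread. Some were less even, such as chr14_12962 with 2, 7 and 2 counts in IDD 1, 2 and 3. Of the 108 IDD counts of the 36 IDD-side tags, 53 were 2, 36 were 3 and 6 were 4, and the highest was 8. Of the 165 Sham counts of the 55 Sham-side tags, 88 were 2, 37 were 3 and 24 were 4, and the highest was 9. The same count stood in all 3 libraries for 16 of the 36 IDD-side tags, at 2 in each library for 11 of them. It did so for 23 of the 55 Sham-side tags, at 2 in each for 17. The mean ratio of variance to mean, which is 1 for counting noise over a full range of counts, was 0.309 for the IDD-side tags and 0.207 for the 54 Sham-side tags with a mean of 2 to 6. Established miRNAs of this pattern and range of means had ratios of 0.264 (5 on the IDD side) and 0.491 (10 on the Sham side), and provisional tags of 17 to 18 nt had 0.204 and 0.321. Ratios below 1 were thus seen in all 3 classes. A listing floor of 2 removes the lowest values and with them part of the variance, and how much of the evenness this gives was not tested.

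**Figure D2:**
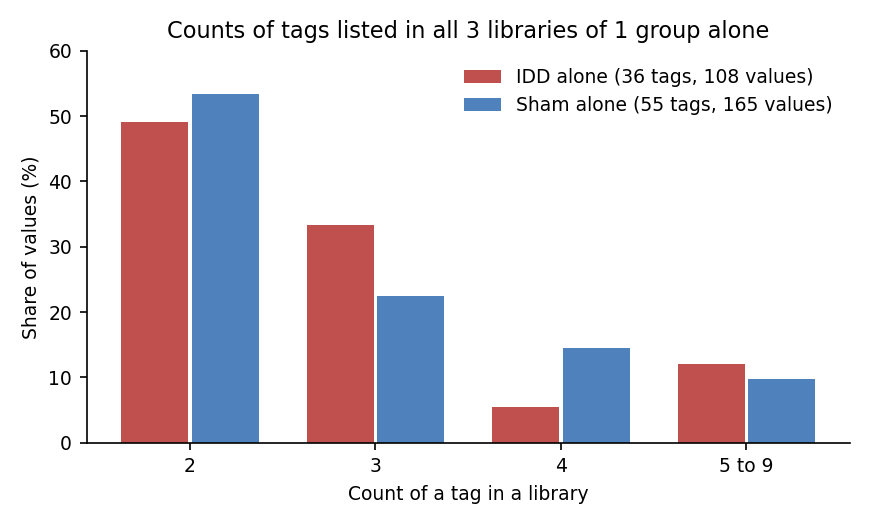
Share of values (vertical axis, percent) at each count (horizontal axis, counts of a tag in a library) for the 36 tags listed in all 3 IDD libraries alone and the 55 listed in all 3 Sham libraries alone. On both sides the bar at 2 is the tallest, and 13 of 108 IDD values and 16 of 165 Sham values are 5 or more.

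For each side, the tags shown here had the most counts among those with more than 3 counts in every library of the group. Their seeds are in capitals, and they show what the steadier of the larger presences and absences look like.
chr4_28881: uGGAAUUAcuguuucuggca
chr1_3479: aGGGCCUGgaggacaggaaagacg
chr3_24450: uUCAGUAUuguacguggacauga
chr18_17771: gAUGUUAGgguuuuacugcug
chr11_8275: cUGCUGGAacagccgaacauu
chr2_20938: cGAACUGUaauuccgagcucc

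On the Sham side, chr4_28881 had 9, 7 and 5 counts in Sham 1, 2 and 3. chr1_3479 had 5, 6 and 5 counts there and chr3_24450 had 6, 5 and 5. On the IDD side, chr18_17771 had 5, 5 and 6 counts in IDD 1, 2 and 3. These tags stand a few counts above the listing floor in every library of 1 group and are unlisted in the other. chr11_8275 had 5, 4 and 5 counts in IDD and chr2_20938 had 6, 4 and 4. Some less even tags had as many counts in sum as some of those shown. On the Sham side chr7_35288 had 9, 4 and 3 counts. On the IDD side chr3_24126 had 3, 3 and 8 and chr3_24211 had 8, 3 and 3. None of these tags has an annotated role in the files or in RefSeq.

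On plain CPM, the Sham mean of chr4_28881 stood 2.21-fold above a floor of 3 counts per library in the other group. The IDD mean of chr18_17771 stood 1.80-fold above such a floor, and the Sham mean of chr1_3479 1.74-fold. These fold bounds require that an unlisted cell hides no more than 3 counts. They also take the listed counts as they stand, with no allowance for their error, and the tags were picked for their high counts. Only 16 of the 36 IDD-side tags and 17 of the 55 Sham-side tags had a group mean above that floor, so that for the others no fold can be given. More than 3 counts in every library of the group were seen for 3 IDD-side and 6 Sham-side tags. None of the 91 passed the filter on low counts, and none entered the test.

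Of the 31 tags with another pattern, 10 were listed in all 6 libraries and are described below. chr14_12966 was the single tag with a mixed pattern, with 3, 2 and 4 counts in IDD 1, 2 and 3 and 2 counts in Sham 2 alone. The other 20 were listed in 1 or 2 libraries of 1 group, at 2 to 7 counts. The highest of these counts were 7 for chr6_32130, in IDD 1 alone, and 6 for chr1_4366, in IDD 3.

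Together the 122 tags held about 1% of all tags, and a slightly larger share in IDD. Their counts summed to 2455, 1891 and 2135 in IDD 1, 2 and 3 and to 2063, 2137 and 1571 in Sham 1, 2 and 3. As shares of all tags these were 0.996%, 0.996% and 0.994% in IDD and 0.813%, 0.849% and 0.925% in Sham. The groups did not overlap, at means of 0.996% ± 0.00124 and 0.862% ± 0.0574 (SD of 3 libraries each, two-sided exact permutation p = 0.1).

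That direction turned with the denominator. Per tag of established miRNAs the 122 tags came to 1.23% ± 0.0416 in IDD and 1.62% ± 0.0398 in Sham, again without overlap but with Sham higher (SD of 3 libraries each, two-sided exact permutation p = 0.1). With the provisional tags of 17 to 18 nt left out of the total, the shares were 1.22% ± 0.0406 and 1.6% ± 0.0385 (exact permutation p = 0.1). These short tags made up 15.9% to 21.2% of an IDD library and 42.9% to 49.7% of a Sham library.

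It also turned without 3 of the tags. chr3_24095, chr19_19038 and chr8_38557 each had over 100 counts in every library. Without these 3 the remaining 119 tags made up 0.0835% ± 0.00601 of an IDD library (SD of 3 libraries each). They made up 0.106% ± 0.00879 of a Sham library, with Sham higher and no overlap. Most of these 119 tags were listed in 1 group alone. The 36 IDD-side tags held 0.0434% to 0.0537% of an IDD library, and the 55 Sham-side tags 0.0632% to 0.0848% of a Sham library. The difference thus largely restates the listing and is given as a description, with no test. Without chr3_24095 and chr19_19038 alone, which lie inside named miRNAs, the share was 0.215% ± 0.0178 in IDD and 0.349% ± 0.0214 in Sham. This set was chosen after seeing the data and is the same 119 tags with chr8_38557. It too is given as a description, with no test. The 10 tags listed in all 6 libraries held 92.7% of the counts of the 122. The 36 IDD-side tags held 2.55% of them, the 55 Sham-side tags 3.89% and the remaining 21 tags 0.824%.

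**Figure D3:**
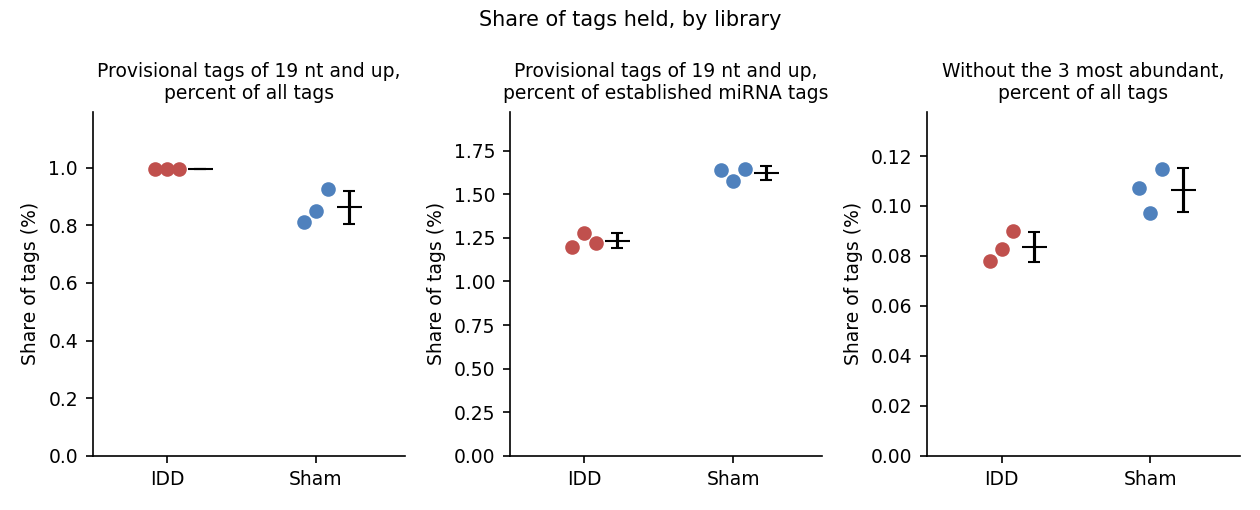
Share of tags held per library (vertical axes, percent, each from 0), with points for libraries and bars for the mean ± SD of 3. Over all tags IDD is higher (0.996% against 0.862%), whereas per established miRNA tag (1.23% against 1.62%) and without the 3 most abundant tags (0.0835% against 0.106%) Sham is higher.

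Of the 122 tags, 5 (4.10%) ended in CCA, the end that cells add to mature tRNAs. That end was found in 0.980% of the established miRNAs, 1.88% of the RefSeq mature sequences and 9.48% of the provisional tags of 17 to 18 nt. None of the 5 had more than 5 counts in any library, and 4 were listed in Sham alone and 1, chr12_8991, in IDD alone. Their share, 0.000932% ± 0.000121 of an IDD library and 0.00447% ± 0.000209 of a Sham library (SD, n = 3 each), restates this listing and is given as a description, with no test. The other 117 tags held 0.995% ± 0.00125 in IDD and 0.858% ± 0.0572 in Sham (exact permutation p = 0.1).

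Only 6 of the 122 tags were abundant enough to test with edgeR's quasi-likelihood test (Benjamini-Hochberg adjusted over all 131 sequences tested, threshold 0.05), and each of the 6 was listed in all 6 libraries. Of these, chr19_19038 and chr3_24095 rose in IDD, chr8_38557 fell and 3 did not pass. Over all 131 sequences tested 59.5% passed, 29.0% as higher in IDD and 30.5% as lower. With 3 of 6 past the threshold, the tags were close to that background. The CPM of 3 of the 6 did not overlap between the groups, beside 66.4% of all sequences tested. The median log2 fold change was 0.092 for the 6 and 0.027 for all 131. Levels below are CPM over TMM-scaled totals.

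chr8_38557 had 291, 259 and 303 counts in IDD 1, 2 and 3 and 629, 575 and 429 in Sham 1, 2 and 3. Every IDD library lay below every Sham library. Its level was 1238 ± 102 CPM in IDD and 2597 ± 310 CPM in Sham (SD, n = 3 each), a log2 fold change of -1.07 (SE 0.12, edgeR adjusted p = 1.14e-05). No established miRNA of the table contains this 20-nt tag, and neither do the miRNA hairpins or promoter windows of RefSeq. Sequences of rRNA, tRNA and snRNA were not used here, so whether it is part of one of these RNAs was not tested.

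chr19_19038 had 1028, 691 and 838 counts in IDD and 520, 580 and 481 in Sham. The groups did not overlap. It rose from 2531 ± 157 to 3667 ± 269 CPM (SD, n = 3 each), by 0.54 on the log2 scale (SE 0.11, edgeR adjusted p = 0.000715). chr3_24095 had 944, 784 and 801 counts in IDD and 642, 737 and 466 in Sham. Its CPM did not overlap between the groups, at 3666 ± 335 in IDD and 2914 ± 252 in Sham (SD, n = 3 each). The rise was 0.33 on the log2 scale (SE 0.11, edgeR adjusted p = 0.0230). That call was lost with scaling on established miRNAs alone (0.17, adjusted p = 0.234) and without IDD 2 (adjusted p = 0.0737), Sham 2 (0.113) or Sham 3 (0.196).

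The 3 tags that did not pass were far scarcer, at 48.9 to 76.0 CPM in IDD, and their groups overlapped. chr11_8278 had 20, 14 and 19 counts in IDD and 18, 14 and 13 in Sham (log2 0.089, SE 0.21, edgeR adjusted p = 0.821). chr15_13357 had 16, 12 and 18 counts in IDD and 13, 17 and 9 in Sham (log2 0.095, SE 0.21, edgeR adjusted p = 0.821). chr2_22840 had 12, 9 and 13 counts in IDD and 11, 12 and 8 in Sham (log2 -0.010, SE 0.21, edgeR adjusted p = 0.980). With such standard errors changes of the size seen for chr3_24095 could not be told from none, and the sign of each of the 3 turned under other settings.

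**Figure D4:**
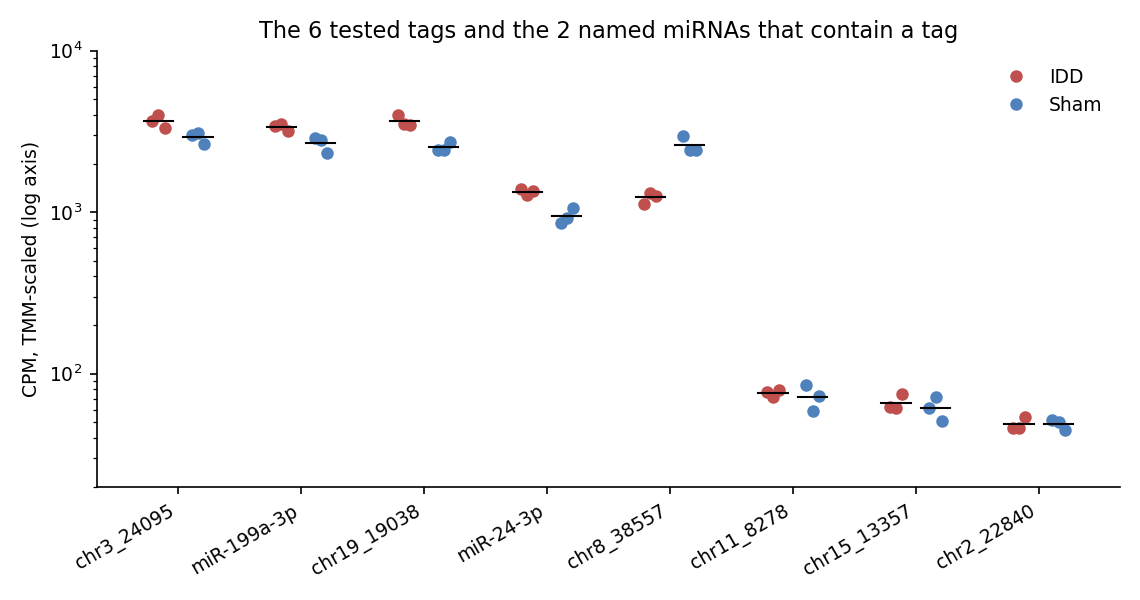
CPM over TMM-scaled totals (vertical axis, log scale) of the 6 tested tags and of miR-199a-3p and miR-24-3p, with a point per library and a line at the mean of 3. chr3_24095 and chr19_19038 lie higher in IDD like the named miRNA beside each, chr8_38557 lies lower in IDD, and the points of the other 3 overlap.

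The other 4 tags listed in all 6 libraries were too scarce to test. chr14_11855 had 5, 6 and 5 counts in IDD and 12, 9 and 7 in Sham, so that every Sham count was above every IDD count. chr15_14264 had 4, 2 and 6 counts in IDD and 5, 10 and 5 in Sham, which overlap. chr17_16673 had 5, 5 and 4 counts against 5, 3 and 3, and chr20_22938 had 2, 2 and 2 against 5, 2 and 2. None of the last 3 separated the groups.

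The 2 most abundant tags are named miRNAs shortened at the 3′ end. They and their partners are shown with the shared bases in capitals.
chr3_24095: ACAGUAGUCUGCACAUUGGUU
miR-199a-3p: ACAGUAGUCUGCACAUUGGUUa
chr19_19038: UGGCUCAGUUCAGCAGGAAC
miR-24-3p: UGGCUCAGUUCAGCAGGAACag

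chr3_24095 is miR-199a-3p without its last base, and chr19_19038 is miR-24-3p without its last 2 bases. Both therefore keep the 5′ end and the seed of the named miRNA. miR-199a-3p is best known from cells of mesenchymal origin, and miR-24-3p is made from hairpins on more than 1 chromosome. These were the only tags of the 122 that share a run of at least 12 bases with an established miRNA of the table.

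The named partners moved as the tags did. miR-199a-3p had 882, 691 and 765 counts in IDD and 617, 668 and 415 in Sham and rose by 0.33 on the log2 scale (SE 0.11, edgeR adjusted p = 0.0226). Its level was 3378 ± 175 CPM in IDD and 2682 ± 300 in Sham (SD, n = 3 each). The counts of chr3_24095 over those of miR-199a-3p were 1.07, 1.13 and 1.05 in IDD and 1.04, 1.10 and 1.12 in Sham. These ratios, 1.08 ± 0.0453 and 1.09 ± 0.0430, overlapped (SD of 3 libraries each, two-sided exact permutation test on the log2 ratio, difference -0.0066, p = 1.0).

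miR-24-3p had 359, 249 and 323 counts in IDD and 183, 219 and 188 in Sham and rose by 0.50 on the log2 scale (SE 0.12, edgeR adjusted p = 0.00208). chr19_19038 had more counts than the named miRNA in every library. The ratio was 2.86, 2.78 and 2.59 in IDD and 2.84, 2.65 and 2.56 in Sham. Its means, 2.74 ± 0.137 and 2.68 ± 0.145, overlapped (SD of 3 libraries each, two-sided exact permutation test on the log2 ratio, difference 0.033, p = 0.7), although in each of the 3 same-numbered pairs of libraries the IDD ratio was the higher one. Whether the authors' counting split reads between a tag and the miRNA that contains it, or counted some for both, was not given in the sources used here, so the counts of these 4 sequences are uncertain and the rises of tag and partner are not independent.

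RefSeq's rat miRNA hairpins (build GRCr8) placed 3 of the 122 tags. chr19_19038 lies in Mir24-2 (chr19:40859483-40859502, minus strand), on the chromosome of its provisional name, and also in Mir24-1 (chr17:1818674-1818693, minus strand). chr3_25899, listed with 2 counts in Sham 1 alone, lies in Mir130a (chr3:90229241-90229261, minus strand) and is miR-130a-3p without its last base. miR-130a-3p is not among the named miRNAs of the table.

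chr11_8278 lies in the hairpin Mir6324 (chr11:48801382-48801401, minus strand), at bases 32 to 51 of 121. The hairpin is shown with the tag in capitals, because the RefSeq mature miRNA of this gene comes from the other arm.
Mir6324: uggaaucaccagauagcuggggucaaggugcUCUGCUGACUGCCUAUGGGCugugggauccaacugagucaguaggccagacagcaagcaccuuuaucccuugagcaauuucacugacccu

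Its counts were among those that did not differ beyond their spread. Of the other tags, 3 occur in RefSeq promoter windows, from 250 bases before to 50 bases after a gene's start. chr2_22840 matches on the opposite strand upstream of Usp33, a gene of a ubiquitin-removing enzyme (chr2:243943043-243943064, bases -167 to -146). chr1_3204 ends at the base before the start of Ehd2, a gene of a membrane-shaping ATPase of caveolae (chr1:85786944-85786962, same strand). chr1_1774 lies upstream of LOC134485181 (chr1:194928425-194928446, same strand). Such a match is a description of letters and not evidence of a source. No match in these RefSeq tables was found for 115 of the 122 tags, whereas 187 of the 204 established miRNAs (91.7%) were identical to a RefSeq mature sequence. Only rat sequences were compared, so likeness to a miRNA known from another species was not tested.

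Shorter likeness to named miRNAs was rare too. The longest run a tag shared with any established miRNA was 6 to 9 bases for 114 of the 122, with a median of 8. Among the established miRNAs themselves the median was also 8, but 37 of 204 (18.1%) shared at least 12 bases with another. A minimum of 10 bases raised the tags with a partner from 2 to 8. The 4 most abundant of the 6 added pairs are shown with the shared run in capitals.
chr15_14264: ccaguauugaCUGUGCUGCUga
miR-195-3p: ccaauauuggCUGUGCUGCUcca
chr1_3479: agggCCUGGAGGACaggaaagacg
miR-490-3p: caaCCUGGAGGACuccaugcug
chr1_1774: aggccgguCUGUGCGUGUGugc
miR-210-3p: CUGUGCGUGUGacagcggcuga
chr16_15043: UUUGAGCCUGAgugacuuaagc
miR-351-5p: ucccugaggagcccUUUGAGCCUGA

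In chr15_14264 and miR-195-3p the run stands at the same place, bases 11 to 20 of both, while in the other 3 pairs it stands at different places. Most bases of chr15_14264 before the run also match those of miR-195-3p, so the likeness of this pair extends beyond the unbroken run. None of the 4 tags shares a seed with its partner. The remaining pairs were chr9_40479 with miR-328a-3p and chr15_13708 with miR-195-3p, each over 10 bases.

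**Figure D5:**
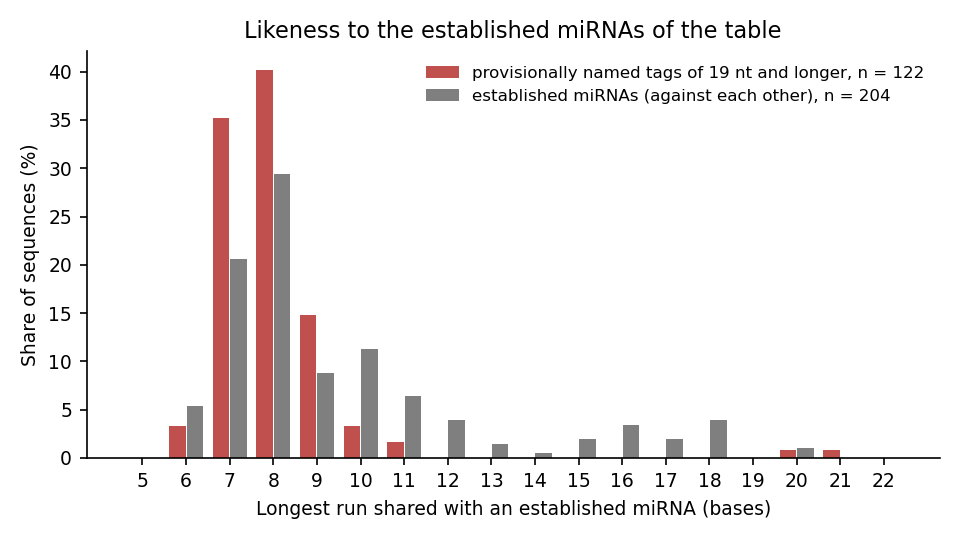
Longest run of bases shared with an established miRNA of the table (horizontal axis, bases) against the share of sequences (vertical axis, percent), for the 122 tags and for the 204 established miRNAs set against each other. Both peak at 8 bases, and beyond 11 bases the tags have only the 2 shortened miRNAs, at 20 and 21 bases.

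By seed, 3 of the 122 tags matched an established miRNA of the table: the 2 shortened miRNAs and chr10_5976, which shares the seed of miR-152-5p. Against all 692 distinct RefSeq mature sequences, 12 tags (9.84%) had a known seed, among them chr17_16673 with that of miR-96-5p and chr11_8278 with that of miR-93-3p. Among themselves, 7 tags shared 3 seeds. Tags that overlapped another provisional tag by at least 12 bases were 3, and the longest such run was the 14 bases shared by chr2_21108 and chr7_34713, shown in capitals.
chr2_21108: gcagGACUGUGCUCUGUCugugua
chr7_34713: uGACUGUGCUCUGUCcugug

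The tags were shorter and less uniform than named miRNAs. There were 38 tags of 19 nt, 33 of 20 nt, 19 each of 21 and 22 nt, 6 of 23 nt, 5 of 24 nt and 2 of 25 nt. Their median was 20 nt, whereas that of the established miRNAs was 22 nt, the length of 60.3% of them. U, the usual first base of miRNAs, opened 36 of the 122 tags (29.5%), 51.0% of the established miRNAs, 36.3% of the RefSeq mature sequences and 37.1% of the shorter provisional tags. G and C made up 51.7% of all bases of the tags, 47.0% of those of the established miRNAs and 53.9% of those of the shorter provisional tags. IDD-only and Sham-only tags were alike in this, at 51.5% each. The names spread over 21 chromosomes, with at most 17 tags on 1.

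The word CUGUG was the most frequent 5-base word among the tags, in 28 of 122 (23%). It occurred in 14 of 204 established miRNAs (6.86%), in 11 of 116 shorter provisional tags (9.48%) and in 30 of 692 RefSeq mature sequences (4.34%). It was about as frequent in tags listed in IDD alone (22.7%) as in Sham alone (22.4%). The word was picked as the most frequent of all those counted, on the strand of the tag only, so that these shares carry no test. Examples from the low-count tags are shown with the word in capitals.
chr7_35288: gccuggguCUGUGugugcu
chr3_24126: auggaCUGUGguugaaagacu
chr10_6278: uuaagagugugcCUGUGgac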

How the data were processed

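Small RNA libraries of about miRNA length were made from total RNA of rat nucleus pulposus and sequenced on an Illumina instrument, per the labels' protocols. The first table holds raw counts of tags for each mature sequence in 6 libraries, as deposited and per the file headers. In the second deposited table the authors gave normalized values in whole numbers, handled here as a score. They follow the counts times 1 factor per library (0.505 to 0.767), apart from 6 values in IDD 3, 4 in Sham 1 and 3 in Sham 3 that were off by more than 1, and served only as an alternative. Named in the submitters' processing notes, with no role for any of them, are the genome build Rnor_6.0, Novoalign 3.02.12 and cutadapt 1.9.3. Which program called the miRNAs was not given in the sources used here.

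Rows with the same sequence were merged, from 491 to 442. A blank was read as not listed and entered as 0, although the lowest listed count is 2 and a blank may hide 1. With a minimum count of 10, filterByExpr of edgeR 4.0.16 (R 4.3.3) kept 131 of all sequences. These were scaled by TMM, and IDD was compared with Sham by edgeR's robust quasi-likelihood test, adjusted by Benjamini-Hochberg, with 0.05 as the threshold (biological coefficient of variation 10.2%). Shares, listed numbers and ratios were compared by exact permutation tests, two-sided. Floors of 3 counts cover counting error alone, because PCR copies of 1 molecule are not independent. Alternatives were other scalings and filters, DESeq2 1.42.0, limma 3.58.1 with and without voom, a replicate block, and leaving out each library. In 20 simulations of IDD versus Sham over 131 sequences, 20 were changed at each size. The test found 91.7% of the 2-fold changes, 68.2% of those of 1.5-fold, and 3.07% of its calls were false. The simulations gave every sequence the same dispersion and drew the directions of change at random. In the data 59.5% of the sequences were called, a larger share than was changed there, so the false share need not hold for these calls.

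Same-numbered libraries deviated together from their group means (correlation 0.104, 0.107 and 0.197). All exceed 0.1, the level set for taking the numbers as pairs. The results given are unpaired, as the design was set, and a block for the number is among the alternatives. No label says what the numbers mean, and the unlike pair of IDD 2 and Sham 1 reached 0.106.

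Tags were compared base by base with the named miRNAs of the table, with RefSeq miRNAs (419 hairpins, 692 distinct mature sequences) and with 33469 RefSeq promoter windows, all on GRCr8. Printed tags come from the deposited table and the Mir6324 hairpin from RefSeq. Named tags were those past the threshold, the 10 of highest mean CPM, every tested tag and those overlapping a named miRNA. The rule also took every tag listed in all 3 libraries of 1 group alone. These came to 91 and were limited after their values were seen. Kept were those of most counts with more than 3 in every library of the group, and a few others. The other tags named, the fold bounds and the counted words were also chosen after values were seen. The tags and lists were chosen with earlier results of these data known. Plots were drawn with matplotlib 3.10.9.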

Additional observations from a re-analysis of the deposited data

How the results depend on the processing

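Depth limits most of these tags: 116 of the 122 were too scarce to test. chr8_38557 (log2 -1.23 to -0.83, adjusted p up to 0.00202) and chr19_19038 (0.37 to 0.76, adjusted p up to 0.0143) kept their calls in all 16 alternatives each. With the replicate block the test called 2 tags higher and 1 lower, as without it. Leaving out 1 library gave 1 to 2 higher and 1 lower. Scaling on established miRNAs alone gave 1 higher. Other scalings moved the median of all log2 fold changes by -0.16 (TMM on established miRNAs) to 0.26 (the authors' normalized values).

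The number of calls moved most without the filter, and again with the value given to a blank. With no filter and blanks at 0, 39 tags were called higher and 61 lower, beside 117 and 168 of all 442 sequences, among them all 91 listed in 1 group alone (adjusted p 0.000606 to 0.0124). The calls of these 91 restate the listing, because listed counts were 2 or more and blanks were entered as 0. Their adjusted p-values add nothing to it. With a blank as 1 as well, chosen after seeing the data, 7 were higher and 6 lower, beside 60 and 48 of all sequences, with 10 of the 91 called (adjusted p up to 0.421).

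Signs turned for the tags that did not pass. With TMM on established miRNAs, chr11_8278 was at -0.072 and chr15_13357 at -0.068. With 1 library left out, chr11_8278 ran from -0.087 (without Sham 2) to 0.23, chr15_13357 from -0.080 (without Sham 3; -0.0085 without IDD 3) to 0.20, and chr2_22840 from -0.13 to 0.067 (without IDD 2; 0.033 without IDD 1, 0.023 without Sham 1). chr2_22840 was also at 0.18 by library size alone, 0.056 with no filter, 0.19 with a blank as 1 and 0.25 with the normalized values.

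The share of all tags, 0.133 percentage points higher in IDD, turned to -0.388 per established tag, -0.377 without the 17 to 18 nt tags, and, in alternatives chosen after seeing the data, -0.0229 without the 3 abundant tags and -0.134 without those inside a named miRNA. Tags not ending in CCA turned from 0.137 to -0.381 and -0.370 under the first pair of these. The listed number turned from -20 to 1.33 at 20 CPM or more, and a shared run of 10 bases gave 8 tags in place of 2. The cause of these changes was not tested beyond the settings themselves.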
